A study of Homo sapiens with 21 samples.

Results

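The 501mel melanoma line had 104442 regions of accessible chromatin on the autosomes and the X chromosome, of 442275 such regions listed for the 4 melanoma lines of the study that have ATAC data. Each region was placed in 1 of 4 classes by whether it shared at least 1 bp with a region of histone H3 K27 acetylation (K27ac) or of the protein CTCF in the same line. Regions with neither are called open only. They numbered 58579, or 56.1% (95% Wilson interval 55.8 to 56.4). Open regions with K27ac but no CTCF numbered 12285 (11.8%, 11.6 to 12.0), those with CTCF but no K27ac 26507 (25.4%, 25.1 to 25.6), and those with both 7071 (6.77%, 6.62 to 6.92). These intervals cover counting error only, because each assay is a single library without a replicate, and no test between conditions was possible.

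501mel is an established human melanoma cell line of the pigmented, melanocytic type. The series is about HOXD13, a homeobox gene of limb development. A HOXD13 construct is named only among the A375 samples, beside controls and hairpins, and no construct is named for 501mel, SKMEL-5 or SKMEL-147. All 3 libraries used for 501mel (ATAC, K27ac and CTCF) carry the same labels: the cell line, melanoma as the cell type and skin as the tissue. Cultures lasted 72 h, in medium that did or did not contain doxycycline at 1 µg/ml, and the labels do not tell which libraries had it. Every region name in the deposited ATAC list contains siNTC (104744 of 104744, rows with identical coordinates counted once), a treatment absent from its label. No name in the K27ac and CTCF lists does. Whether K27ac and CTCF came from ChIP-seq or from CUT&Tag is not given, and the extraction text describes RNA, not chromatin. The IgG library of 501mel was not analysed here. For comparison the ATAC lists of SKMEL-5, SKMEL-147 and A375-GFP, all melanoma lines under the same culture text, the K27ac lists of these lines, the CTCF list of SKMEL-5 and a list of tagged HOXD13 in A375 were used.

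ATAC-seq marks DNA that a transposase can enter, which in most cells means promoters, enhancers and insulators with few nucleosomes. H3K27ac is laid down on nucleosomes beside active promoters and enhancers, so it tends to flank the accessible gap and not to fill it. CTCF is a zinc finger protein that binds DNA directly through a long motif and, with cohesin, sets the borders of chromatin loops. In melanocytes, MITF, SOX10 and PAX3 drive the genes of pigment synthesis, and MITF recognises an E-box variant called the M-box.

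The sequences upstream of 6 gene starts show the CTCF and MITF motifs that were searched for in promoters, at starts of the CTCF and K27ac classes. Each is the 250 bases before a start, 5′ to 3′ along the gene, from the RefSeq promoter table (GRCh38.p14). The first 3 lie under the strongest CTCF regions whose summit fell within 50 bp of a match to CNAGNNGGC, a short core of the CTCF motif searched on both strands, among starts with no other gene over these bases, and the capitals mark that match. KRTCAP2, a subunit gene of the oligosaccharyltransferase complex, is read from chr1:155173305-155173554 on the minus strand. SH3GL1, which encodes the endocytic adaptor endophilin A2, comes from chr19:4400548-4400797 on the minus strand. HSD3B7, an enzyme gene of bile acid synthesis, comes from chr16:30984957-30985206 on the plus strand.
KRTCAP2: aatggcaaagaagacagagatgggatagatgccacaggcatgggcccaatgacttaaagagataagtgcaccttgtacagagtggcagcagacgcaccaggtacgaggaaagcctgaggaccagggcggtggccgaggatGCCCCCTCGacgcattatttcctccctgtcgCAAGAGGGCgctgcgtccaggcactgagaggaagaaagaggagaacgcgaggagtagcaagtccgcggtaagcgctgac
SH3GL1: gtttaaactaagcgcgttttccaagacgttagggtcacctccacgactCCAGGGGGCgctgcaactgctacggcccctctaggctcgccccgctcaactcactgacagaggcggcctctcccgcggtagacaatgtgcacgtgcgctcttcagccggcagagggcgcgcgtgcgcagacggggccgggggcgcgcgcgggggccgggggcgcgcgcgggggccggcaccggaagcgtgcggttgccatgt
HSD3B7: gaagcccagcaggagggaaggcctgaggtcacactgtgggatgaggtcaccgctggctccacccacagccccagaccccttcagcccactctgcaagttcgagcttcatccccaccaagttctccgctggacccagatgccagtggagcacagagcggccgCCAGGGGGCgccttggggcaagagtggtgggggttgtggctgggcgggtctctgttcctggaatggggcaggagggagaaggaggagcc

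The CTCF fold enrichment in the deposited list was 41.8 at KRTCAP2, 37.0 at SH3GL1 and 33.2 at HSD3B7, and the CTCF summit lay 30, 27 and 27 bp from the match. KRTCAP2 held 2 matches on opposite strands and the other 2 genes 1 each. The next 3 sequences belong to pigment cell genes with an open K27ac region whose summit lay within 1 kb of the start. At TYRP1 that region began downstream of the start and did not cover the bases shown. Capitals mark the M-box TCATGTG or its reverse complement CACATGA. TYR, which encodes tyrosinase, the rate-limiting enzyme of melanin synthesis, is read from chr11:89177625-89177874 on the plus strand. TYRP1, also a melanin enzyme gene, comes from chr9:12693135-12693384 on the plus strand. GPNMB, a melanosomal glycoprotein gene, comes from chr7:23246525-23246774 on the plus strand.
TYR: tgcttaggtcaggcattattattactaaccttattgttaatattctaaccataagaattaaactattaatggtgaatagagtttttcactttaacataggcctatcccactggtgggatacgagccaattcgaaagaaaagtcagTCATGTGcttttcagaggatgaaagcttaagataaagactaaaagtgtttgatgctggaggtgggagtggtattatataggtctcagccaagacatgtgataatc
TYRP1: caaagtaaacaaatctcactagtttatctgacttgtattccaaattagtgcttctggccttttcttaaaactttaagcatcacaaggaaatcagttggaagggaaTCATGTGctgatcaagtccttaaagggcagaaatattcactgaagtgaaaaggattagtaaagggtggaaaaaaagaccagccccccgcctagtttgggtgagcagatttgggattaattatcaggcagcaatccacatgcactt
GPNMB: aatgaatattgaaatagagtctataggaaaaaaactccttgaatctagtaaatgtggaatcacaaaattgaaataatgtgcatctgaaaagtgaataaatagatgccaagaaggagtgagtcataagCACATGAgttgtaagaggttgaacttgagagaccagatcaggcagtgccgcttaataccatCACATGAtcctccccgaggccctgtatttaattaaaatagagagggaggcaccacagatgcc

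The M-box began 105 bases before the start of TYR, 145 before that of TYRP1 and 123 before that of GPNMB, which held a pair of matches on the opposite strand. Among the 38 melanocyte lineage factors and pigment genes examined, 29 were in the promoter table, with 48 start windows of 300 bp, and 10 windows (20.8%) held an M-box. Of all 22131 protein-coding windows, 2.31% held it. Those 38 genes were listed with earlier results of these data known, so the difference is a description. A match is a run of letters and says nothing about binding.

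By median, open regions with both marks were the widest and strongest of the 4 classes, and open only regions the narrowest and weakest. The median width was 229 bp for open only regions, 388 bp with K27ac, 387 bp with CTCF and 763 bp with both. The authors' ATAC fold enrichment, a value per region comparing it with its local background, had medians of 5.94, 7.39, 10.6 and 12.7 in the same order. The interquartile ranges of the fold overlapped between all classes, from 4.34 to 9.47 for open only regions and from 8.90 to 16.6 for regions with both.

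Ordered by the authors' fold enrichment and split into 10 classes of equal size, the ATAC list changed its makeup from the weak to the strong end. Open only regions made up 74.2% of class 1, the weakest, and 30.6% of class 10, the strongest. CTCF without K27ac made up 6.98% and 44.4%, and both marks 2.18% and 15.4%. K27ac without CTCF stayed between 9.63% and 16.7% in all 10 classes and was highest in the weakest. Width moved with strength, from a median of 148 bp in class 1 to 612 bp in class 10, and a wider region has more room to meet another list. Among 5 classes of equal size by width, the narrowest (103 to 156 bp) had both marks at 0.541% of regions, and the widest (607 to 2940 bp) at 23.5%. The parts of strength and width in the class were not tested apart.

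**Figure D1:**
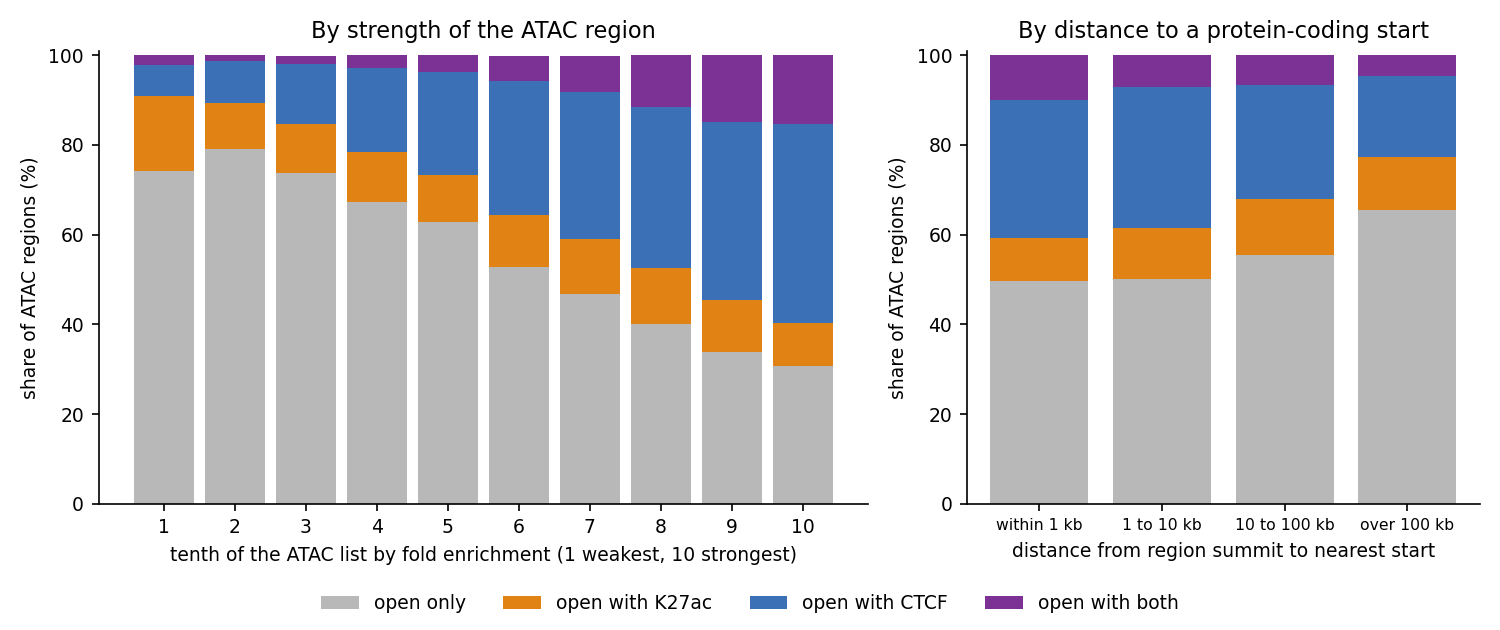
Share of 501mel ATAC regions (%) in each of the 4 classes, by fold enrichment of the ATAC region (left, 10 classes of equal size from weakest to strongest) and by distance from the region's summit to the nearest protein-coding start (right). Open only regions made up 74.2% of the weakest class and 30.6% of the strongest, and 49.6% of the regions within 1 kb of a start against 65.4% of those over 100 kb away.

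Most regions of every class lay away from gene starts. Within 1 kb of a protein-coding start were 12.2% of open only regions, 11.4% with K27ac, 16.6% with CTCF and 20.6% with both, against 13.8% of all ATAC regions. At over 100 kb from any start lay 27.1%, 23.5%, 16.5% and 16.3%. Seen from the starts, the 14373 open regions within 1 kb were open only in 49.6%, with K27ac in 9.71%, with CTCF in 30.6% and with both in 10.1%. The order of the classes at starts depended on the threshold: with all 3 lists held to −log10 q of at least 10, the shares within 1 kb were 18.8% for open only regions, 12.1% with K27ac, 18.3% with CTCF and 15.5% with both. Beyond 1 kb, regions with K27ac lay inside the body of a protein-coding gene more often (64.3% with K27ac, 59.3% with both) than open only (49.2%) or CTCF regions (46.6%).

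CTCF and K27ac met open chromatin to different extents when counted from their own lists. Of the 39473 CTCF regions, 33376 (84.6%, 84.2 to 84.9) overlapped an ATAC region, with 58.0% of the weakest of 10 classes by −log10 q doing so and 99.0% of the strongest. Of the 55889 K27ac regions, 18396 (32.9%, 32.5 to 33.3) did, from 14.8% to 84.5%. With all 3 lists at −log10 q of at least 10, 71.0% of the 9466 remaining K27ac regions overlapped ATAC. The K27ac list was weak as a whole: 16.9% of its regions reached −log10 q of 10, against 55.6% for CTCF and 62.6% for ATAC. In this list, 19.2% of the 15811 protein-coding genes with a listed start had the midpoint of a K27ac region within 1 kb of a start. That share was near the 17.6% of SKMEL-147 and below the 46.0% of SKMEL-5 and 51.0% of A375-GFP. Regions that reached a start with their midpoint farther away were not counted, so these shares are lower bounds for K27ac within 1 kb. Absence from the K27ac list therefore does not show absence of the mark, and the part of depth was not tested, since no read counts come with the lists.

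Some regions classed as open only or CTCF lay beside K27ac without touching it. K27ac was found within 1 kb, without overlap, for 9786 ATAC regions (9.37%), and for 13.3% of those at starts. CTCF lay that close without overlap for 3.03% of regions. Counting such neighbours as overlap, an alternative chosen after seeing the data, left 48.6% open only and raised the class with both marks from 6.77% to 11.7%. Stricter overlap moved that class the other way, to 2.44% where the ATAC summit had to lie inside the other region, and the equal-length version of the 3 lists gave 33.8% open only and 14.3% with both.

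The position of the summits, the single base of strongest signal in each region, separated the marks. In open regions with CTCF the nearest CTCF summit lay a median of 39 bp from the ATAC summit (interquartile range 7 to 79 bp), and 81.6% were within 100 bp. In regions with both marks the CTCF median was 68 bp. K27ac summits lay much farther off, at a median of 329 bp (126 to 599) in regions with K27ac alone and 523 bp (321 to 761) in regions with both. Only 3.56% of regions with both had a K27ac summit within 50 bp, against 40.1% for CTCF in the same regions. Where a region had several summits, only the one with the highest −log10 q was kept. A nearer summit may thus have been left out, and the part of this in the distances was not tested.

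**Figure D2:**
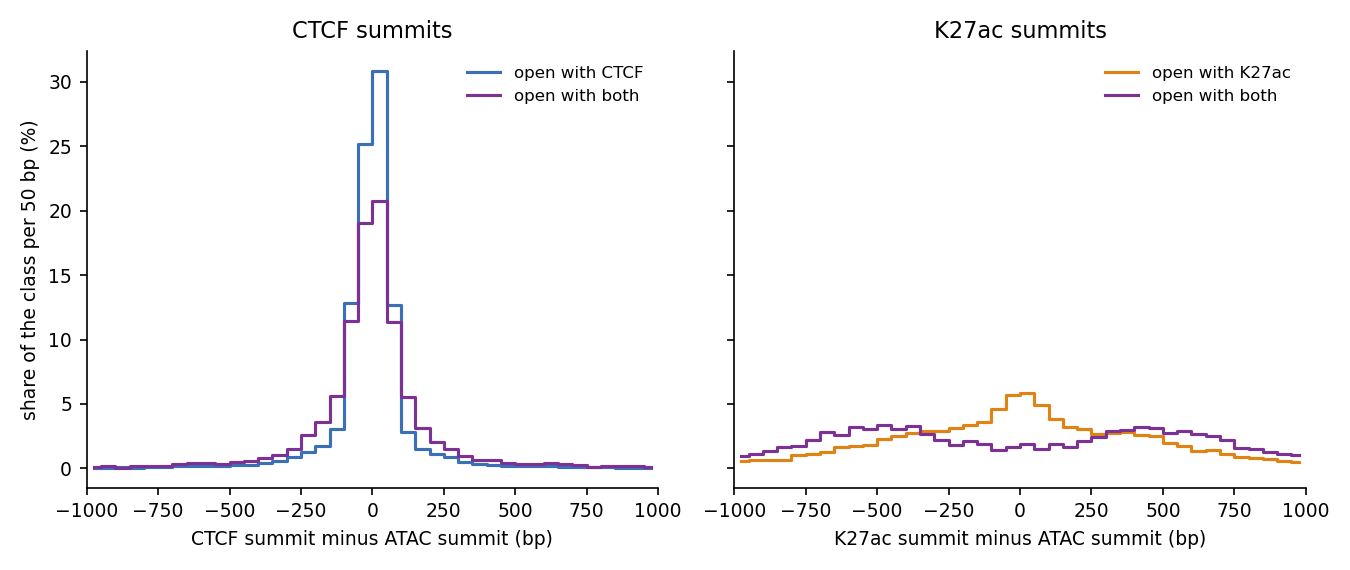
Distance in bp from each ATAC summit to the nearest CTCF summit (left) or K27ac summit (right), as the share of the class per 50 bp bin. CTCF summits piled up at 0, with 56.3% of the CTCF class within 50 bp, while K27ac summits in regions with both marks formed a hump on each side with a median distance of 523 bp.

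Neighbouring regions tended to share a class. The ATAC region that followed one with K27ac along the chromosome was itself of that class in 31.7% of 12282 pairs, although the class holds 11.8% of all regions. After a CTCF region, 37.4% of the next regions were of the CTCF class (25.4% of all), and after an open only region 64.4% were open only (56.1% of all). The median gap to the next region was 6870 bp after K27ac regions and 7454 bp after regions with both, against 13921 bp after open only regions. Neighbouring ATAC regions that touch the same K27ac or CTCF region share that mark by the overlap rule. Such pairs were not set apart, and their part was not tested.

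At the level of genes, 6909 of 19970 protein-coding genes (34.6%) had no ATAC region with its summit within 1 kb of a start. Open only starts belonged to 5646 genes (28.3%), CTCF to 4499 (22.5%), K27ac to 1172 (5.87%) and both marks to 1744 (8.73%). The state of a gene joins all regions within 1 kb of any of its starts. Both marks may thus come from different regions, and from different starts or gene ends where a gene has several. RAB27A, for example, had K27ac and CTCF at different starts. An open start with K27ac, with or without CTCF, was thus found at 14.6% of genes and one with CTCF, with or without K27ac, at 31.3%, and every gene list below is read against these shares. Genes at which the promoter table lists no start (4159, among them every gene of chromosome 8) were judged at either end of the gene. The K27ac states shrank under stricter rules, to 621 genes with K27ac and 392 with both at −log10 q of at least 10, and to 412 and 360 where the ATAC summit had to lie inside the K27ac or CTCF region.

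The starts with the strongest open region of each class were open in nearly every other line. The highest ATAC folds at open only starts were 32.7 at ANKRD17, an ankyrin repeat protein gene (chromosome 4, 73222792 to 73223384, hg38), and 28.8 at PNPT1, a mitochondrial RNA exonuclease gene, followed by ATOSA, THOC3, DBT and CPS1 at 27.6 to 28.3. With K27ac, TRUB1, a pseudouridine synthase gene, led at 27.4 (chromosome 10, 114937930 to 114938724; K27ac fold 4.06), ahead of CHCHD3 (24.8), MTHFD2L (24.5), ORC5, HNMT and MSTO1 (22.9). The strongest CTCF starts were those of OR2L13, an olfactory receptor gene (ATAC fold 29.7, CTCF fold 9.28; chromosome 1, 247936900 to 247937648), and of the zinc finger genes ZNF431 (29.2), ZNF519 (28.1) and ZNF112 (27.5), with EXOC4 and INTS3 at 27.7 each. With both marks the highest were COL9A1, a collagen gene (28.4, K27ac fold 2.57, CTCF fold 23.3), CCSER2 (28.4), DDX18, SLC30A6, MDM4 and USP54 (24.7). Of these 24 regions, 23 overlapped ATAC regions in all 3 other lines and that of COL9A1 in 2. Among all regions within 1 kb of a start, the share open in all 3 was 58.8% for open only and 63.4% with K27ac. It was 86.0% with CTCF and 86.7% with both. The 24 were picked for high ATAC fold, and the part of strength in their sharing was not tested.

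Pigment cell genes carried K27ac at most of their starts. Of 24 pigment and melanosome genes, all 24 were open at a start and 18 (75%) had K27ac, 9 of them together with CTCF, against 14.6% of all genes with K27ac. CDK2, which was on this list, and PMEL lie side by side and were counted by the same 2 start regions, and without CDK2 the count was 17 of 23 (73.9%, an alternative chosen after seeing the data). With the ATAC summit required inside the K27ac or CTCF region, 10 of the 24 had K27ac. At TYR the start region (chromosome 11, 89177673 to 89178808, hg38) had an ATAC fold of 12.0 and a K27ac fold of 22.6, with no CTCF, and was open in 1 other line. TYRP1 had its start region at 12693982 to 12694392 on chromosome 9, with an ATAC fold of 9.77 and a K27ac fold of 30.3, also open in 1 other line. The regions at PMEL, the melanosome fibril protein gene, were weak in ATAC (folds 3.09 and 3.90) and strong in K27ac (14.2 and 18.9). MLANA, which encodes the melanoma antigen MART-1, had an ATAC fold of 5.08 and a K27ac fold of 32.3, with CTCF at 4.67. DCT, the dopachrome tautomerase gene, had both marks in a region with an ATAC fold of 14.1. The ATAC folds of these starts were thus moderate while the K27ac folds were among the higher of that list, whose median was 4.01. CTCF without K27ac marked 4 pigment genes, namely BACE2, SLC24A5, MC1R and OCA2, the last with a CTCF fold of 24.0, and only RAB38 and SLC7A5 were open only.

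Of the 14 melanocyte lineage factors, 7 (50%) had K27ac at a start, 7 had CTCF and 3 had no open region there. The count with K27ac was 4 at −log10 q of at least 10 and 2 where the ATAC summit had to lie inside the K27ac or CTCF region. MITF, the master regulator of the lineage, has 3 listed starts. The first, at position 69739464 of chromosome 3, was open only with an ATAC fold of 14.4 and was open in all 3 other lines. The second had no ATAC region within 1 kb. The third, at 69936592, was open from 69936031 to 69936748 with an ATAC fold of 12.7, a K27ac fold of 26.6 and a CTCF fold of 3.81, and was open in 2 other lines. SOX10, a factor of neural crest and melanocytes, had 3 open regions at its gene ends, the strongest with both marks (ATAC fold 6.41, K27ac fold 17.6, CTCF fold 4.78). PAX3, the paired box factor upstream of MITF, had CTCF on its strongest start region (ATAC fold 14.7) and K27ac on a weaker neighbour (2.58). TFAP2A had K27ac alone (ATAC fold 6.06, K27ac fold 18.2), as did LEF1, the Wnt pathway factor (6.35 and 3.71). ZEB2 and ETV1 had both marks, with highest ATAC folds of 5.14 and 12.7. SNAI2 and ID3 had CTCF only (13.7 and 5.75), TFAP2C and SOX5 were open only (11.6 and 6.31), and FOXD3, IRF4 and TFEC had no ATAC region at a start. HOXD13, the gene the series is about, had none within 1 kb of its start at 176092721 on chromosome 2 either. The nearest ATAC summit lay 4930 bp away in a region with both marks (176097060 to 176097884, ATAC fold 15.1).

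**Figure D3:**
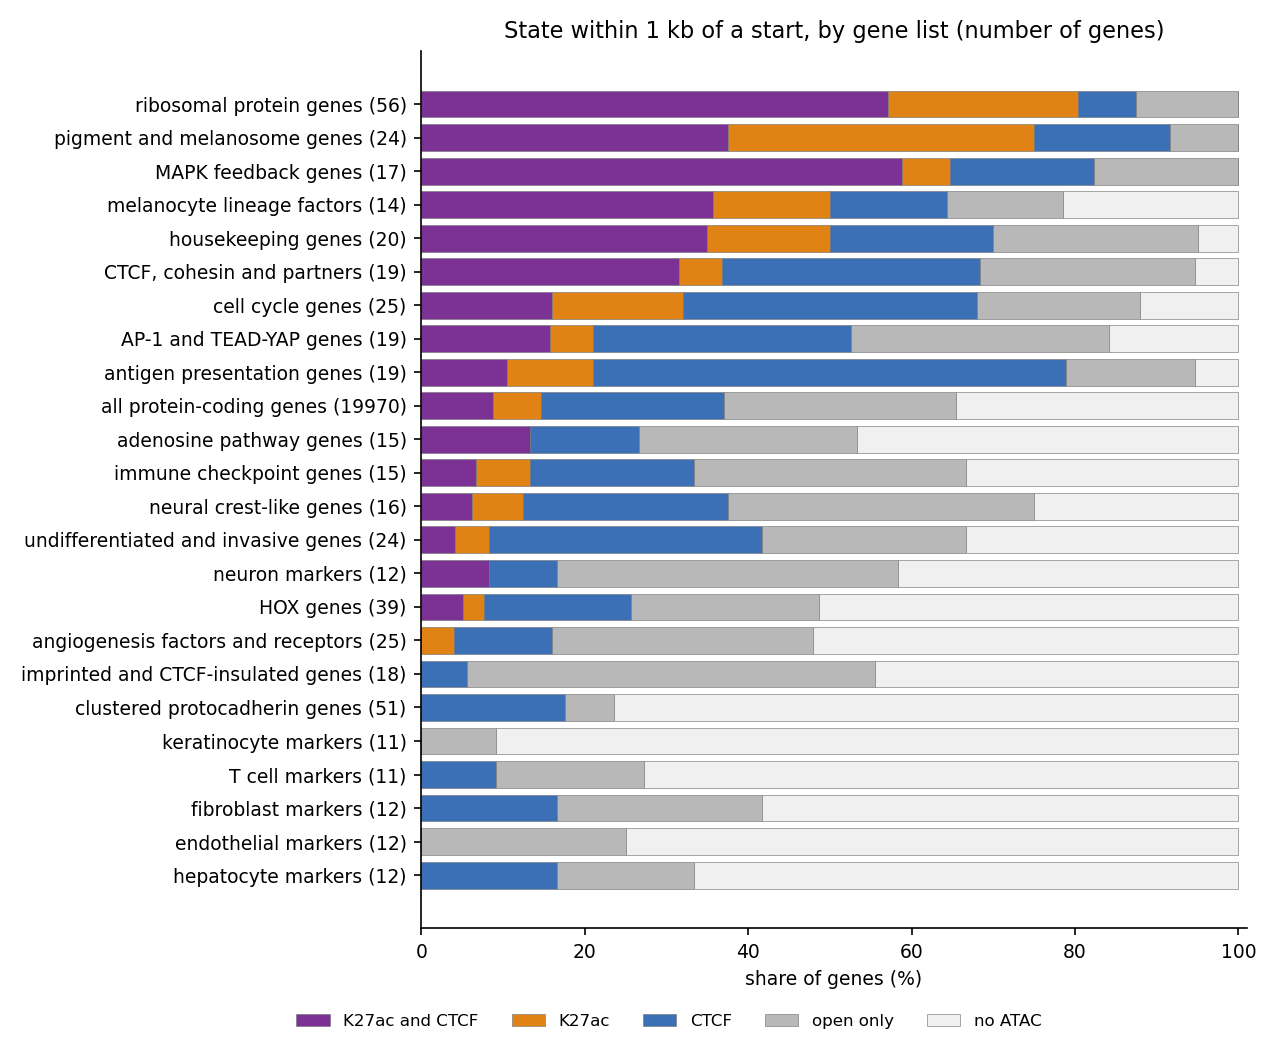
Share of the genes of each list (%) in each state within 1 kb of a start, with the number of genes in brackets and all protein-coding genes for comparison. Ribosomal protein, pigment and MAPK feedback genes had K27ac in 80.4%, 75% and 64.7% of members against 14.6% of all genes, and the keratinocyte, T cell, fibroblast, endothelial and hepatocyte lists had none.

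Housekeeping programmes also carried K27ac at starts, most of them together with CTCF. The same held over all protein-coding genes, where 1744 of the 2916 with K27ac at a start also had CTCF. All 56 ribosomal protein genes were open and 45 (80.4%) had K27ac, 32 of them with CTCF, such as RPL37 (ATAC fold 21.6, K27ac fold 2.99, CTCF fold 5.09) and RPS6 (19.2, 5.26 and 3.82). At −log10 q of at least 10 the count was 20 genes, and where the ATAC summit had to lie inside the K27ac or CTCF region it was 7. Of 20 housekeeping genes 10 had K27ac. Among them TFRC, the transferrin receptor gene, was open at 16.5, while GAPDH was open only at 2.09 and PGK1 open only at 18.4. Feedback genes of the MAPK pathway, which ERK signalling switches on in melanoma with BRAF or NRAS mutations, had K27ac at 11 of 17 (64.7%), and at 3 where the ATAC summit had to lie inside the K27ac or CTCF region. DUSP6, the ERK phosphatase gene, had both marks (ATAC fold 8.17, K27ac fold 10.1, CTCF fold 4.77), and so did the ERK-responsive ETS factor genes ETV4 and ETV5 and the Sprouty genes SPRY1, SPRY2 and SPRY4. Of the rest IER3 had K27ac alone, SPRED1, SPRED2 and EGR1 had CTCF alone, and DUSP5, EPHA2 and FOSL1 were open only.

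The share of members with CTCF at a start differed between lists. Of 19 antigen presentation genes, 13 (68.4%) had CTCF, 11 of them without K27ac, against 31.3% and 22.5% of all genes. TAP2, a peptide transporter gene of the MHC, held a CTCF fold of 73.4 at an open start with an ATAC fold of 20.0, and its partner TAP1 had 15.0 and 19.0. HLA-B and HLA-C had ATAC folds of 19.4 and 20.2. Cell cycle genes had CTCF at 13 of 25 (52.0%), led by the replication helicase gene MCM3 (ATAC fold 21.5, CTCF fold 12.0), and K27ac at 8. Of 19 genes for CTCF, cohesin and partners, 12 (63.2%) had CTCF at their own start and 7 had K27ac, but the CTCF gene itself was open only (ATAC fold 12.9) and its testis paralogue CTCFL was closed. Clustered protocadherin genes, whose promoter choice in neurons depends on CTCF, had no ATAC region in 39 of 51. Of the other 12 members 9 had CTCF, such as PCDHGA12 (ATAC fold 13.4, CTCF fold 8.33) and PCDHGB4 (9.67 and 9.03), and none had K27ac. Over all 51 members the share with CTCF was 17.6%, below the 31.3% of all genes. Of 18 imprinted and CTCF-insulated genes 8 had no ATAC region, 9 were open only, such as SNRPN (12.9), and MYC alone had CTCF, while none had K27ac.

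Lists of the other melanoma states and of signalling pathways had K27ac at the starts of 1 to 4 members each. Neural crest-like (12.5%), adenosine pathway and immune checkpoint genes (13.3% each) were near the 14.6% of all genes. AP-1 and TEAD-YAP genes were above it (21.1%), and invasive (8.33%), HOX (7.69%) and angiogenesis genes (4.00%) below. These 4 shares rest on few genes each, and their difference from the share of all genes was not tested. All 4 counts were lower at −log10 q of at least 10. Within 2 kb of a start the invasive, HOX and angiogenesis counts were higher. Of 24 undifferentiated and invasive genes 8 had no open start, 8 had CTCF alone, such as the caveolin gene CAV1 (ATAC fold 19.2) and JUN (12.5), and 2 had K27ac, FN1 (14.1) and SOX4 (11.8). Among 16 neural crest-like genes K27ac marked CDH19, a cadherin gene of Schwann cell precursors (ATAC fold 21.5, K27ac fold 12.1), and S100A1 (8.49). The angiogenesis list had no open start at 13 of 25 genes and K27ac at 1, HIF1A, the hypoxia factor gene (16.7), and CTCF marked SEMA3C, JAG1 and VEGFA. In the adenosine pathway K27ac with CTCF marked 2 of 15 genes, ENTPD1, which encodes the ectonucleotidase CD39, and SLC29A2, a nucleoside transporter gene. Immune checkpoint genes had K27ac at 2 of 15, TNFRSF14 and IL10, while CD274, which encodes PD-L1, had CTCF alone (ATAC fold 21.0, CTCF fold 3.90). AP-1 and TEAD-YAP genes had K27ac at 4 of 19, namely JUNB, JUND, FOS and WWTR1. HOX genes had no open start at 20 of 39, CTCF at 9 and K27ac at 3, HOXA3, HOXA5 and HOXB7.

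The label of a melanoma line was checked against markers of other cell types, which were mostly closed. No ATAC region lay at the start of 10 of 11 keratinocyte genes, 8 of 11 T cell genes, 7 of 12 fibroblast genes, 9 of 12 endothelial genes and 8 of 12 hepatocyte genes, and none of the genes on these 5 lists had K27ac. The exceptions that were open included KRT16 (ATAC fold 5.80), CD3E (23.2, at its gene end) and CD8A (17.3, with a CTCF fold of 36.3). Of 12 neuron markers 5 had no open start and 1, TUBB3, had K27ac.

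Away from starts, ATAC regions of the K27ac class were fewer and belonged to fewer genes than those of the open only or CTCF class. All regions counted in this paragraph are ATAC regions, named by their class, and not the K27ac or CTCF lists themselves. ATAC regions over 1 kb from every start were assigned to the nearest start within 100 kb. This placed 35577 open only, 17752 CTCF, 8003 K27ac and 4462 regions with both. Open only regions were then held by 12306 genes (61.6%), CTCF regions by 9495 (47.5%), K27ac regions by 3841 (19.2%) and regions with both marks by 2784 (13.9%). The gene with the most K27ac regions was NEDD4L, a ubiquitin ligase gene, with 30 of its 56 regions. It was followed by SPTBN1, which encodes a spectrin of the membrane skeleton (25 of 39), PDE4D, a cyclic AMP phosphodiesterase gene (21 of 58), NAV2 (20 of 44), ARID5B (16 of 31) and PAX3 (16 of 16). Regions with both marks were most numerous near MITF (13 of 44), BCAR3 (12 of 39), and CCDC200, NEDD4L and SPTBN1 (10 each). LPP led the open only class with 24 regions, ahead of PDE4D and SMAD3, the TGF-beta effector gene (22 each), NTM (20), SH3PXD2A (19) and APBA2 (18). CTCF regions were most numerous near LINGO1 (15), PDE4D and PHACTR3 (14 each), DST (13), IZUMO2 (12) and IGLL5 (11). A nearest start is a position and does not show which gene a region acts on.

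Of the regions assigned to melanocyte lineage factors away from starts, 51.6% had K27ac, and of those of pigment genes 45.6%, against 18.9% over all protein-coding genes. MAPK feedback genes had 39.7% and adenosine pathway genes 35.3%, while imprinted genes had 4.92% and fibroblast markers 4.65%. Of the 15 adenosine pathway genes, 5 held a region of the K27ac class away from starts and 2 held one with both marks. T cell markers, a list of another cell type, had 41.2%, from 14 regions with K27ac, most of them near CD28, which had 11 with K27ac and 2 with both marks. MITF had 44 regions: 14 with K27ac, 13 with both, 5 with CTCF and 12 open only. Of the 27 with K27ac, 11 were open in no other line and 3 in all 3. All 16 regions of PAX3 had K27ac and none had CTCF, with ATAC folds up to 16.1 at 222290513 to 222291626 on chromosome 2, and 10 of the 16 were open in no other line. KIT, the stem cell factor receptor gene, had 13 with K27ac of 24, EDNRB, the endothelin receptor gene, 12 of 23, and ZEB2 16 of 25. Open in no other line were 9 of the 13 at KIT, 9 of the 12 at EDNRB and 3 of the 16 at ZEB2. TYR had 10 with K27ac of 13. The strongest, at 89168071 to 89168862 on chromosome 11, lay 9356 bp from the start with an ATAC fold of 19.0, a K27ac fold of 25.4 and a CTCF fold of 13.2, and was open in all 3 other lines. At TFAP2A 6 of the 8 K27ac regions were open in all 3 other lines.

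**Figure D4:**
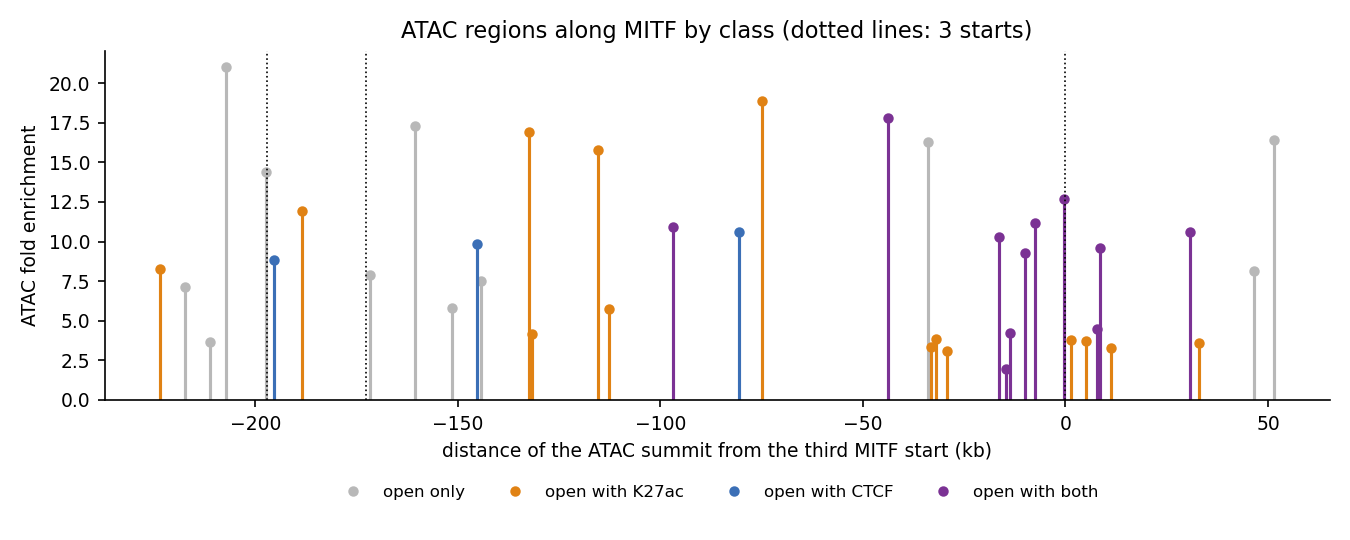
ATAC regions along MITF, placed by the distance of their summit from the third start in kb, with the ATAC fold as height and the class as colour, and the 3 listed starts as dotted lines. Regions with both marks gathered around the third start, whose own region had an ATAC fold of 12.7, while that of the first start, the leftmost dotted line, was open only with 14.4.

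K27ac regions joined across gaps of up to 10 kb formed 17729 domains, of which 7690 (43.4%) contained no ATAC summit and 229 contained at least 10. The number with at least 10 was 102 with gaps of up to 5 kb and 492 with gaps of up to 20 kb. The densest domain held 46 ATAC regions over 250.3 kb on chromosome 6 (15281107 to 15531448). It held no gene start, and the nearest, 157423 bp from its middle, was that of JARID2, a cofactor gene of Polycomb repressive complex 2. Whether a domain lay within the body of a gene was not examined, so this distance does not make it intergenic. Next came domains over SEMA5A, a semaphorin gene (43 regions, 42 of them with K27ac), NAV2 (42), IGF2BP2, an RNA-binding protein gene (38), NHSL1 (37), and the pair of PRKD3 and QPCT (37). Of the 46 regions of the domain near JARID2, 36 had K27ac, 15 of those with CTCF too.

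Open regions with CTCF were shared with the other melanoma lines far more often than those without. Of the CTCF class 55.5% overlapped ATAC regions in all 3 other lines and 5.39% in none, and of the class with both 53.7% and 13.1%. Open only regions had 21.5% and 33.5%, and K27ac regions 21.6% and 38.7%. Position moved with this, since starts were shared in every class: beyond 1 kb from a start the share open in no other line was 37.2% for open only regions, 42.8% with K27ac, 6.23% with CTCF and 16.1% with both. Strength moved with it too, CTCF regions being the stronger ones. With every list at −log10 q of at least 10 the shares open in no other line were 28.4%, 37.4%, 4.87% and 16.7% in the same order. The other lists differ in length (56333 regions in SKMEL-5, 118398 in A375-GFP and 163102 in SKMEL-147), so overlaps with them are not ranked.

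**Figure D5:**
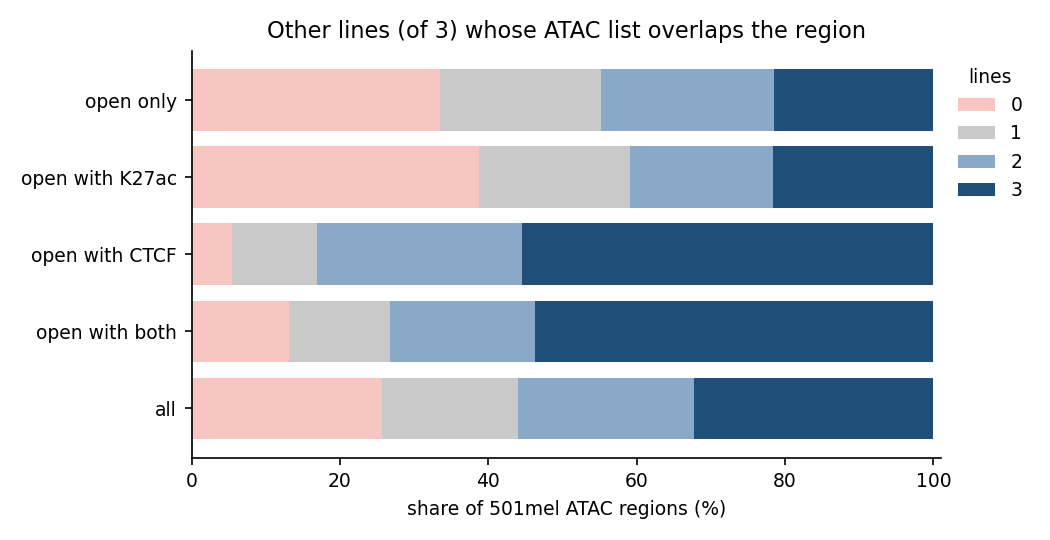
Share of 501mel ATAC regions (%) of each class that overlap the ATAC list of 0, 1, 2 or 3 of the other lines SKMEL-5, SKMEL-147 and A375-GFP. In the CTCF class 5.39% of regions were open in no other line and 55.5% in all 3, against 38.7% and 21.6% in the K27ac class.

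Of the 108 regions of pigment genes with K27ac away from starts, 57 (52.8%, 43.4 to 61.9) were open in no other line, against 33.8% (32.9 to 34.6) of the 12465 such regions of all genes. Those of pigment genes without K27ac were also open in no other line more often, in 59 of 129 (45.7%, 37.4 to 54.3) against 26.5% of all genes. Of the 24 regions of adenosine pathway genes with K27ac, 17 (70.8%, 50.8 to 85.1) were open in no other line. Few genes held these 24: a joined K27ac domain over ENTPD1 alone contained 17 ATAC regions with K27ac, at starts or away from them. For the lineage factors the share was 30 of 99 (30.3%, 22.1 to 40). Regions near 1 gene share a locus and are not independent, so these intervals are too narrow.

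SKMEL-5, also a melanocytic line and the only other with all 3 assays, gave another makeup: 32.0% open only, 19.8% with K27ac, 26.7% with CTCF and 21.5% with both, over 56333 ATAC regions. Its list is shorter than that of 501mel. With each list of both lines held to the shorter of the pair, open only regions were 40.4% in 501mel and 34.5% in SKMEL-5, K27ac 11.6% and 24.7%, CTCF 37.1% and 24.2%, and both 10.9% and 16.6%. Where a 501mel region overlapped a SKMEL-5 ATAC region, the same class was found in 47.2% of 17868 open only regions, 65.1% of 4108 with K27ac, 58.7% of 16947 with CTCF and 65.9% of 5128 with both. Open only regions of 501mel most often met K27ac when the class changed (25.8%). K27ac regions of 501mel met a SKMEL-5 region with CTCF alone in 1.48%.

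The promoter windows of the gene starts differed in base composition and short motifs by state. Each window covers 250 bases before to 50 after a start, 22131 windows in all, and motifs were searched on both strands. Median GC content was 54.3% at starts with no ATAC region and 68.7%, 67.7%, 63.7% and 63.3% at starts that were open only, with K27ac, with CTCF and with both. The ETS motif CCGGAAG was in 3.56% of windows with no ATAC region, 15.2% of open only, 17.5% of K27ac, 20.2% of CTCF and 23.8% of both, and in 12.8% of all. The M-box TCATGTG was in 3.52% of windows with no ATAC region, 1.39% of open only, 3.00% of K27ac, 1.14% of CTCF and 2.33% of both, so K27ac windows did not hold it more often than those with no ATAC region. CCAAT was in 43.0% of CTCF windows and 34.6% of all. The E-box CACGTG was in 14.3% of K27ac windows and 8.34% of all, and every CACGTG is its own reverse complement. TATAAA was in 16.3% of windows with no ATAC region against 9.46% of all, and the AP-1 motif TGANTCA in 8.98% against 6.15%. GCGCATGCG, a core of the NRF1 motif, was in 4.50% of CTCF windows and 2.36% of all. The part of base composition in these shares was not tested.

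The CTCF core CNAGNNGGC did not mark the CTCF state as a whole: it was in 32.3% of CTCF windows, 33.2% of open only windows and 28% of all. It went with the strength of the CTCF region. Where the CTCF summit fell in a window, 31.2% of windows held the core at −log10 q under 5 (27 to 35.8, 426 summits) and 45.3% at 50 or more (39.0 to 51.7, 234 summits). A core within 50 bp of the summit was found in 11.7% and 19.7%. The starts of KRTCAP2, SH3GL1 and HSD3B7, whose sequences are given above, were chosen for a high CTCF fold and a core within 50 bp of the summit. They illustrate the core and add nothing to this comparison.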

How the data were processed

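Region lists of 1 ATAC, 1 K27ac and 1 CTCF library of 501mel were taken as deposited, on hg38 per the submitters' processing notes. Rows with identical coordinates, which give further summits of a region, were counted as 1 region. Of such rows only the summit with the highest −log10 q was kept. Those notes name Trim Galore, Bowtie2, SAMtools, MACS2 and deepTools, with no role or version. Each deposited region has the authors' fold enrichment (a ratio), a −log10 q and a summit. Regions outside the autosomes and X (302 ATAC, 147 K27ac and 283 CTCF regions) were left out. The lowest −log10 q kept was 1.30 to 1.34, and no read depth comes with the lists, so folds describe regions within a list only. Protein-coding genes came from RefSeq (GRCh38.p14), with starts from its promoter table for 15811 genes and both gene ends for 4159. Overlaps, distances and 95% Wilson intervals were computed in Python 3.11.15 with pandas 2.3.3, checked on simulated regions. H19, MEG3, XIST, LOR and TRBC1 were not among the protein-coding genes, so their 5 entries among the listed genes were not counted. Members, gene lists and motifs were chosen with earlier results of these data known. Genes named are those with the strongest regions at starts, the most regions away from starts and the densest domains, every lineage factor, and for other lists the strongest members of the commonest state and those in rare states, with others for contrast. Alternatives changed overlap, thresholds, list length, joining and distance. Some genes that this rule would name are not reported here.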

Additional observations from a re-analysis of the deposited data

How the results depend on the processing

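All values come from single libraries with unknown depth, so absence from a list is not absence of a mark. No paired analysis was possible because each assay has 1 library, which also leaves no replicate to omit. Joining ATAC regions within 150 bp and leaving out the MHC kept all 4 class shares inside their intervals.

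Class shares are given as open only, K27ac, CTCF and both. They were 62.1%, 8.70%, 26.7% and 2.44% with the ATAC summit inside the other region, 65.1%, 9.68%, 22.8% and 2.38% with at least 50% of the region covered, 63.8%, 8.94%, 23.2% and 4.13% with K27ac and CTCF at −log10 q of at least 5, 57.8%, 9.80%, 27.3% and 5.03% with all 3 lists at 5, and 63.0%, 8.03%, 25.9% and 3.05% at 10. Lists of equal length gave 33.8%, 11.4%, 40.5% and 14.3%, joining K27ac within 1 kb 55.5%, 12.3%, 25.1% and 7.03%, and counting neighbours within 1 kb (chosen after seeing the data) 48.6%, 16.2%, 23.5% and 11.7%.

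Shares near a start were 14.6%, 14.6%, 19.9% and 23.9% within 2 kb, 19.0%, 19.4%, 27.1% and 29.8% within 5 kb, 17.5%, 15.9%, 23.4% and 26.5% for starts of all genes, and 18.8%, 12.1%, 18.3% and 15.5% at −log10 q of at least 10. At that threshold the shares open in no other line were 28.4%, 37.4%, 4.87% and 16.7%, and in all 3 others 16.7%, 16.4%, 38.0% and 39.4%, while 71.0% of K27ac and 85.4% of CTCF regions overlapped ATAC (chosen after seeing the data). With lists of both lines held to equal length, SKMEL-5 gave 34.5%, 24.7%, 24.2% and 16.6%, and 501mel 40.4%, 11.6%, 37.1% and 10.9%. Dense K27ac domains numbered 102 with gaps of 5 kb and 492 with 20 kb. Among open only windows, where the region had to overlap the window, the ETS share was 16.4% and the TATAAA share 4.56%, and the other 38 shares of the 8 motifs stayed inside their intervals.

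Gene counts within 5 kb were 4327 with no ATAC and 2703 with both marks. K27ac and both numbered 621 and 392 genes at −log10 q of at least 10, and 412 and 360 with the summit rule, while neighbours within 1 kb gave 2837 with both. Counting genes with a listed start only, or away regions within 50 kb, moved no count by over 1.5 times.

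Members with K27ac at a start, where the count moved by over 1.5 times, were as follows. Within 2 kb, neural crest-like 4, invasive 4, HOX 7, angiogenesis 2 and neuron 2. Within 5 kb, neural crest-like 4, invasive 4, protocadherin 2, HOX 10, angiogenesis 3, T cell 2, fibroblast 1, endothelial 1, hepatocyte 1 and neuron 2. At −log10 q of at least 10, lineage factors 4, neural crest-like 1, invasive 1, cohesin 3, HOX 0, ribosomal 20, AP-1 2, angiogenesis 0, antigen presentation 0, checkpoint 1, cell cycle 5 and neuron 0. With the summit rule, lineage factors 2, pigment 10, neural crest-like 0, invasive 1, cohesin 1, housekeeping 6, ribosomal 7, AP-1 2, MAPK feedback 3, angiogenesis 0, antigen presentation 2, checkpoint 1 and cell cycle 1. With neighbours within 1 kb, invasive 4, imprinted 1, HOX 6, angiogenesis 4 and endothelial 1. The cause of these moves beyond the alternatives' own construction was not tested.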

Other observations

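The class makeup differed between chromosomes. Chromosome 19, the most gene-dense with 24.8 protein-coding genes per Mb, had 56.4 ATAC regions per Mb, and 39.7% of them were in the CTCF class against 5.48% with K27ac alone. Chromosome X had 15.5 ATAC regions per Mb, of which 66.5% were open only and 2.40% had both marks, and 1.51 regions per Mb with K27ac. Chromosome 20 had 50 ATAC regions per Mb and 5.69% with K27ac alone, while chromosomes 6 and 2 had the largest K27ac shares, 15.3% and 15.0%. The copy number of these chromosomes in 501mel is not known from the lists, and its part was not tested.

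Tagged HOXD13 was mapped in A375 and not in 501mel. Its 29176 regions overlapped 4.35% of 501mel ATAC regions: 4.14% of open only regions, 5.81% with K27ac, 3.22% with CTCF and 7.78% with both. The overlap joins different lines and describes shared positions only.

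The strongest open only regions over 10 kb from any start lay 828878 bp from the nearest gene KCNJ18 (ATAC fold 72.3, 209 bp wide), 362364 bp from IRS2 (54.8, 213 bp), 96624 bp from FAM246B (52.7) and 48627 bp from KIAA0825 (47.7). The strongest with K27ac lay nearest to IL9R (50.7), WSB1 (47.0), ANHX (43.3) and PROS1 (38.4), those with CTCF to SPATA31A3 (36.0), PCDH15 (34.1), TNS1 (32.5) and LDHAL6B (31.5), and those with both to CCDC200 (37.3), PLEC (31.4), GPR37 (31.0) and PTPRA (29.6). No filter for repetitive sequence was applied here.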
